A study of Mus musculus with 19 samples.

Results

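Transcripts of the 4 opioid receptor genes, Oprm1, Oprd1, Oprk1 and Oprl1, were described in sorted mouse sensory neurons. They were taken by gene symbol from a table of 18666 genes that gives fragments scaled to the length of the transcript and the fragments mapped in the library (FPKM), and all 4 were found there, each in 1 row. The 19 libraries fell into 4 groups: MrgprA3+ neurons of mice with allergic contact dermatitis (ACD, 4 libraries), MrgprA3- neurons of ACD mice (5 libraries), MrgprA3+ neurons of control mice (5 libraries) and MrgprA3- neurons of control mice (5 libraries). Both treatments used male C57BL/6 mice, 2 months old, 5 per treatment, in which MrgprA3+ neurons carry a genetic GFP label; the allele behind the label is not given in the sources used here. ACD was produced with squaric acid dibutylester (SADBE, 0.5% in acetone), put on the shaved abdomen on days 1 to 3 and on the lower back on days 8 to 12, while control mice received acetone alone. On day 13 the 16 thoracic and lumbar dorsal root ganglia that supply the treated skin were taken from each mouse and sorted by flow cytometry into GFP+ cells and unlabelled cells of similar shape. The MrgprA3- libraries therefore hold a mixture of the other neuron types.

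Opioid receptors are G protein coupled receptors that act through the inhibitory proteins Gi and Go. Their active G proteins lower cyclic AMP, close presynaptic calcium channels and open GIRK potassium channels, which quiets the neuron. Oprm1 encodes the mu receptor, the main target of morphine, Oprd1 the delta receptor, preferred by enkephalins, Oprk1 the kappa receptor, preferred by dynorphins, and Oprl1 the nociceptin receptor, which binds nociceptin and not the classical opioids. In sensory ganglia these receptors are known for the inhibition of pain signalling, and spinal mu and kappa receptors are known for opposite effects on itch. MrgprA3 marks a small class of neurons without myelin that responds to chloroquine and carries itch.

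The 250 bases before the transcription start are shown for the receptors with an entry in the RefSeq promoter table (build GRCm38.p6), because the receptors differed in their pattern over the populations. Each is written 5′ to 3′ on the strand of its gene, and capitals mark matches, on either strand, to CACGTG (the E-box), GGGCGG (the GC box) or TATAAA (the TATA box). Oprm1 lies on chromosome 10 (plus strand, chr10:6788326-6788575), Oprd1 on chromosome 4 (minus strand, chr4:132144487-132144736) and Oprl1 on chromosome 2 (plus strand, chr2:181714766-181715015). The window shown for each gene is the one whose start lies closest to the 5′ end of a transcript listed for it with the FPKM values.
Oprm1: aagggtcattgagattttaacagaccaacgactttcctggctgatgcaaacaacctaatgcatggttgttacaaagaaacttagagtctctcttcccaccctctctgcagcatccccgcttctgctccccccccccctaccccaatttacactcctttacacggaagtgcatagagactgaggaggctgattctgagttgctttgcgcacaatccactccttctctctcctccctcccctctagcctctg
Oprd1: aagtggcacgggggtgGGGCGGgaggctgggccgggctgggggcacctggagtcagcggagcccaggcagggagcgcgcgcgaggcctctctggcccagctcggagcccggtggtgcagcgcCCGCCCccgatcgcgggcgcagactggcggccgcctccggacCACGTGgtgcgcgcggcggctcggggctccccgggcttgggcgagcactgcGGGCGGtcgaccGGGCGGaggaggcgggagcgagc
Oprl1: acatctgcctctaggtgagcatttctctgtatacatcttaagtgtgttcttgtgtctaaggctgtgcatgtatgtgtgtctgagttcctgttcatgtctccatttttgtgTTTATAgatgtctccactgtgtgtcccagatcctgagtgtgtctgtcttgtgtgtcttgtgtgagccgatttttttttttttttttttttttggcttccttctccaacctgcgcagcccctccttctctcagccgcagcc
The Oprd1 window had a GC content of 80%, against 50.8% for Oprm1, 44.4% for Oprl1 and a median of 52.4% over 32851 windows of this length. It held 4 GC boxes and 1 E-box, which spans bases 86 to 81 before the start. Among all windows 32.7% held a GC box and 6.02% this E-box. The Oprl1 window held 1 TATA box sequence on the opposite strand, 140 to 135 bases before the start, as 12.4% of all windows do on either strand. The Oprm1 window held none of these letters, and the core TGTGGT bound by Runx factors (either strand, in 14.0% of windows) was in none of the 3 windows shown. Oprk1, on chromosome 1, is named only.

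The sort was checked on Mrgpra3 itself, which averaged 940 ± 101 FPKM in MrgprA3+ and 19.96 ± 3.97 FPKM in MrgprA3- libraries of ACD mice (SD, n = 4 and 5), and 1131 ± 197 FPKM in MrgprA3+ and 20.2 ± 4.12 FPKM in MrgprA3- libraries of control mice (SD, n = 5 each). Approximate depth, read from the spacing of low FPKM values, was 10.32 to 21.04 M fragments per library. The summed FPKM of 8 neuronal markers was 9384 to 11614 in MrgprA3+ and 8738 to 9604 in MrgprA3- libraries of ACD mice, and 9310 to 11004 in MrgprA3+ and 7530 to 10443 in MrgprA3- libraries of control mice. Tubb3 made up most of that sum, with means in MrgprA3+ and MrgprA3- libraries of 6941 and 5670 FPKM in ACD mice and 6662 and 5375 FPKM in control mice. Snap25 went the other way, with 474 and 1007 FPKM in ACD mice and 371 and 927 FPKM in control mice. Of the 8 markers 3 were higher and 1 lower in MrgprA3+ neurons in each treatment. Markers of satellite glia (7 genes) summed to 305 to 435 FPKM in MrgprA3+ and 372 to 540 FPKM in MrgprA3- libraries of ACD mice, and to 206 to 387 FPKM in MrgprA3+ and 426 to 551 FPKM in MrgprA3- libraries of control mice. Apoe made up most of that sum, with means in MrgprA3+ and MrgprA3- libraries of 296 and 346 FPKM in ACD mice and 235 and 369 FPKM in control mice. Schwann cell markers (7 genes) summed to 1421 to 1522 FPKM in MrgprA3+ and 1108 to 1223 FPKM in MrgprA3- libraries of ACD mice, and to 1244 to 1538 FPKM in MrgprA3+ and 1071 to 1358 FPKM in MrgprA3- libraries of control mice. Pmp22 made up most of that sum, and without it the other 6 genes summed to 96.7 to 135 FPKM in MrgprA3+ and 266 to 338 FPKM in MrgprA3- libraries of ACD mice, and to 61.9 to 104 FPKM in MrgprA3+ and 241 to 308 FPKM in MrgprA3- libraries of control mice. Of the 5 Schwann cell markers past the expression filter, 1 was higher and 3 lower in MrgprA3+ neurons of ACD mice, and 1 was higher and 4 lower in control mice. Among all genes tested 6.84% were higher and 15.2% lower in ACD mice, and 8.64% were higher and 18.4% lower in control mice. No marker of these 3 lists was at 0 throughout a group. Markers of macrophages and leukocytes (7 genes) summed to at most 1.1 FPKM in MrgprA3+ and 20.6 FPKM in MrgprA3- libraries of ACD mice, and to at most 3.86 FPKM in MrgprA3+ and 11.8 FPKM in MrgprA3- libraries of control mice, with Ptprc at 0 throughout the MrgprA3+ control libraries. Endothelial and mural markers (7 genes) summed to 68.3 to 107 FPKM in MrgprA3+ and 15.2 to 22.4 FPKM in MrgprA3- libraries of ACD mice, and to 38.0 to 85.5 FPKM in MrgprA3+ and 16.2 to 23.4 FPKM in MrgprA3- libraries of control mice, with Cdh5 at 0 throughout the MrgprA3+ control libraries. Rgs5 made up most of that sum, and without it the other 6 genes summed to at most 7.47 FPKM in MrgprA3+ and 10.9 FPKM in MrgprA3- libraries of ACD mice, and to at most 7.72 FPKM in MrgprA3+ and 10.7 FPKM in MrgprA3- libraries of control mice. The part of these cells in the receptor values was not tested.

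The mu receptor did not pass the test between the populations, whereas the kappa, delta and nociceptin receptors were lower in MrgprA3+ neurons, the delta receptor at values below the expression filter. None of the 4 differed between ACD and control mice past the test. Differences were fitted with limma on log2(FPKM + 1), with adjustment over the 11996 genes that reached 1 FPKM in at least 4 libraries and a threshold of 0.05. On simulated data the fits of the population difference made more false calls than this threshold allows, so their adjusted p-values are too small. Oprm1, Oprk1 and Oprl1 passed that filter and Oprd1 did not. Oprk1 passed it through MrgprA3- libraries alone (9 of 10, and 0 of 9 MrgprA3+ libraries), so that it had to differ, and its test is no support for a difference. Each receptor was also compared by the exact two-sided permutation test of the group means, 16 tests in all, unadjusted, with 0.00794 as the smallest p these groups allow.

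**Figure D1:**
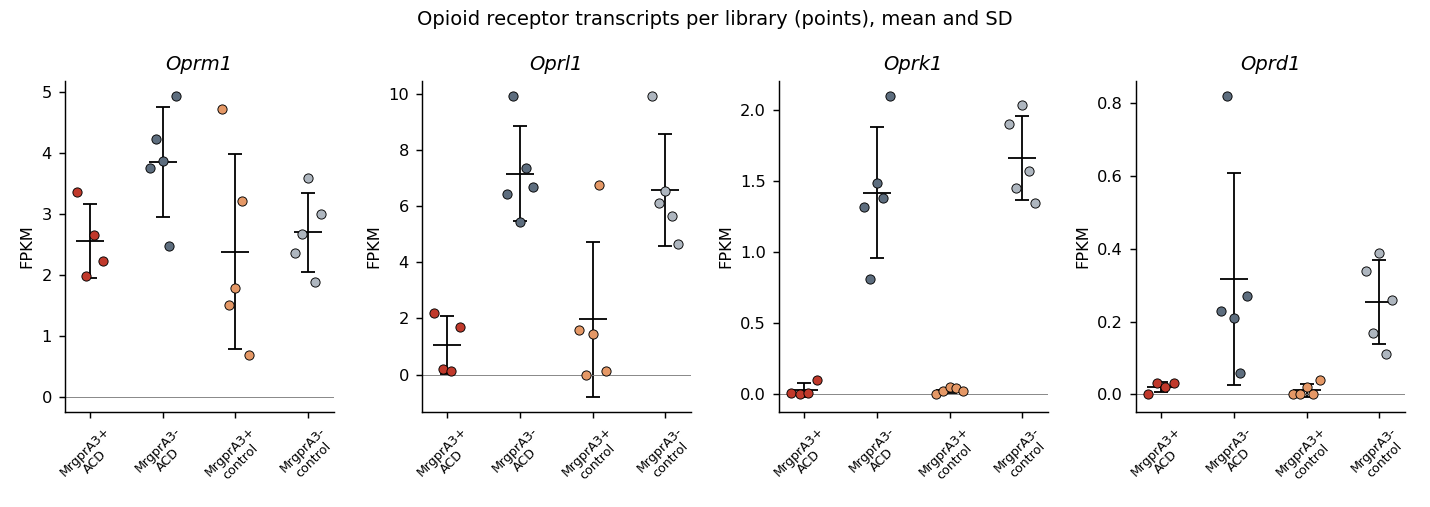
FPKM of each opioid receptor gene in every library (points, linear axes that differ between panels), with the mean (line) and SD (bars) of the 4 groups. Oprm1 overlaps between populations, Oprk1 lies at 0.1 FPKM or below in all MrgprA3+ libraries, and 1 MrgprA3+ control library reaches 6.73 FPKM for Oprl1.

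Oprm1 had 3.37, 1.98, 2.65 and 2.23 FPKM in the MrgprA3+ libraries of ACD mice (replicates 1, 2, 4 and 5), against 3.75, 4.23, 3.87, 2.47 and 4.94 FPKM in the MrgprA3- libraries of the same treatment (replicates 1 to 5). In control mice it had 4.73, 1.51, 1.79, 3.21 and 0.68 FPKM in MrgprA3+ libraries, against 2.36, 2.67, 3.6, 1.88 and 3 FPKM in MrgprA3- libraries. The ranges overlapped in both treatments, and in control mice the MrgprA3+ libraries held both the highest and the lowest value. The means were 2.56 ± 0.608 FPKM in MrgprA3+ and 3.85 ± 0.901 FPKM in MrgprA3- neurons of ACD mice, and 2.38 ± 1.60 FPKM in MrgprA3+ and 2.70 ± 0.650 FPKM in MrgprA3- neurons of control mice (SD). The log2 difference, MrgprA3+ minus MrgprA3-, was -0.44 (SE 0.29, limma adjusted p = 0.298, exact permutation p = 0.0556) in ACD mice, with a 95% interval of -1.04 to 0.16. In control mice it was -0.24 (SE 0.27, limma adjusted p = 0.557, exact permutation p = 0.484), with a 95% interval of -0.81 to 0.33. The median over all genes, -0.12 in ACD and -0.14 in control mice, lay inside both intervals. In GENCODE vM21 (GRCm38), exons of Ipcef1 overlap those of Oprm1 on the opposite strand, and whether the counting used strand is not given in the sources used here. Ipcef1 itself averaged 0.468 FPKM in MrgprA3+ and 0.352 FPKM in MrgprA3- libraries of ACD mice, and 0.378 FPKM in MrgprA3+ and 0.270 FPKM in MrgprA3- libraries of control mice, and how far reads of the genes were mixed was not tested.

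Oprk1 had 0.01, 0, 0.01 and 0.1 FPKM in the MrgprA3+ libraries of ACD mice, against 1.32, 0.81, 1.49, 1.38 and 2.1 FPKM in their MrgprA3- libraries. In control mice it had 0, 0.02, 0.05, 0.04 and 0.02 FPKM in MrgprA3+ libraries, against 1.9, 1.45, 2.04, 1.57 and 1.35 FPKM in MrgprA3- libraries. Every MrgprA3+ library lay below every MrgprA3- library. The mean FPKM in MrgprA3+ neurons was 0.0211 times that in MrgprA3- neurons in ACD mice and 0.0156 times in control mice. Since 1 fragment was worth about 0.0102 to 0.0207 FPKM for this gene, the MrgprA3+ values correspond to about 9 fragments summed over 4 ACD libraries and 8 over 5 control libraries, against 543 and 583 in the MrgprA3- libraries. The log2 difference was -1.21 (SE 0.18, limma adjusted p = 4.06e-05) in ACD mice and -1.37 (SE 0.17, limma adjusted p = 2.74e-06) in control mice. A pseudocount of 1 understates the change of so low a gene, and with 0.1 the differences were -3.55 and -3.80. The exact permutation p was 0.00794 in both treatments.

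Oprd1 had the lowest mean FPKM of the 4 in every group and lay below 1 FPKM in all libraries, although in MrgprA3- ACD replicate 2 it lay above Oprk1 (0.82 against 0.81 FPKM). It had 0, 0.03, 0.02 and 0.03 FPKM in the MrgprA3+ libraries of ACD mice, against 0.23, 0.82, 0.21, 0.06 and 0.27 FPKM in their MrgprA3- libraries. In control mice it had 0, 0, 0.02, 0 and 0.04 FPKM in MrgprA3+ libraries, against 0.34, 0.17, 0.39, 0.11 and 0.26 FPKM in MrgprA3- libraries. The populations did not overlap in either treatment, but the MrgprA3+ values rest on about 5 fragments in ACD and 3 in control libraries, against 99 and 74 in MrgprA3- libraries. The exact permutation p was 0.0159 in ACD mice (log2 difference -0.34) and 0.00794 in control mice (log2 difference -0.30). With a pseudocount of 0.1 the differences were -1.57 and -1.61. In a limma fit with no filter on low values the adjusted p was 0.0327 in ACD and 0.0395 in control mice. Of the 18646 genes in that fit 2182 were lower and 788 higher in ACD mice, and 2628 were lower and 982 higher in control mice. The share of genes without overlap was taken only over genes past the filter, a set without Oprd1. In ACD mice the exact p became 0.0714 without any one of the MrgprA3+ libraries. Under quantile normalization neither treatment passed, with an exact permutation p of 0.508 in ACD and 0.0952 in control mice.

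Oprl1 had 2.19, 0.21, 0.14 and 1.68 FPKM in the MrgprA3+ libraries of ACD mice, against 6.41, 9.91, 5.43, 7.34 and 6.67 FPKM in their MrgprA3- libraries. In control mice it had 1.58, 0, 1.45, 6.73 and 0.13 FPKM in MrgprA3+ libraries, against 9.91, 6.1, 6.54, 5.65 and 4.66 FPKM in MrgprA3- libraries. In ACD mice all MrgprA3+ libraries were below all MrgprA3- libraries, and in control mice 4 of 5 were, with replicate 4 inside the MrgprA3- range. The log2 difference was -2.11 (SE 0.44, limma adjusted p = 0.00107, exact permutation p = 0.00794) in ACD mice and -1.73 (SE 0.41, limma adjusted p = 0.00292, exact permutation p = 0.0397) in control mice. With a pseudocount of 0.1 the differences were -3.26 and -2.95, and without replicate 4 of the MrgprA3+ control libraries the control value was -2.18. Oprl1 reached 1 FPKM in 5 of the 9 MrgprA3+ libraries and had a coefficient of variation of 0.984 in MrgprA3+ and 0.236 in MrgprA3- libraries of ACD mice, and 1.39 in MrgprA3+ and 0.303 in MrgprA3- libraries of control mice. The highest MrgprA3+ library also had the highest Mrgpra3 of the 9 (1446 FPKM) and the highest sum of 7 peptidergic markers (7160 FPKM, against 4899 to 6353 FPKM in the other 8). Most of that sum is Calca and Calcb, and Calca is itself higher in MrgprA3+ neurons, and the other 5 markers summed to 446 FPKM in this library, against 251 to 391 FPKM in the other 8. Its sum of 8 markers of large neurons was 461 FPKM, within the 270 to 465 FPKM of the others. The other marker sums of this library also lay within the range of the others. They were 32.7 FPKM for the NP3 class of neurons (31.1 to 62.7) and 46.5 FPKM for low-threshold C fibres (10.6 to 83.4). Satellite glia markers summed to 299 FPKM (206 to 435) and Schwann cell markers to 1307 FPKM (1244 to 1538). Their part in its Oprl1 value was not tested.

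Read against all genes tested, a fall of this kind was common. Of the 11996 genes, 15.2% were lower and 6.84% higher in MrgprA3+ neurons of ACD mice, and 18.4% were lower and 8.64% higher in control mice. Of the 3 receptors past the filter, 2 were lower and 0 higher in each treatment. Of these 2, Oprk1 passed the filter through MrgprA3- libraries alone and so had to differ, and its place in these counts is no support for a difference. Genes whose MrgprA3+ libraries all lay below all MrgprA3- libraries made up 14.6% of those tested in ACD mice and 12% in control mice. Oprk1 and Oprl1 were among them in ACD mice, and Oprk1 in control mice. The split over all genes depends on the scaling. It was 821 higher and 1826 lower in ACD mice and 1037 higher and 2204 lower in control mice as deposited, but 1178 and 1475, and 1431 and 1723, after median-ratio rescaling. Quantile normalization gave 1047 higher and 1376 lower in ACD mice, and 1328 higher and 1635 lower in control mice. Oprk1 and Oprl1 were lower in both treatments under each scaling, while Oprm1 in control mice had a difference of 0.06 after quantile normalization. Fewer cells of a type and less RNA per cell cannot be told apart in these bulk libraries.

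**Figure D2:**
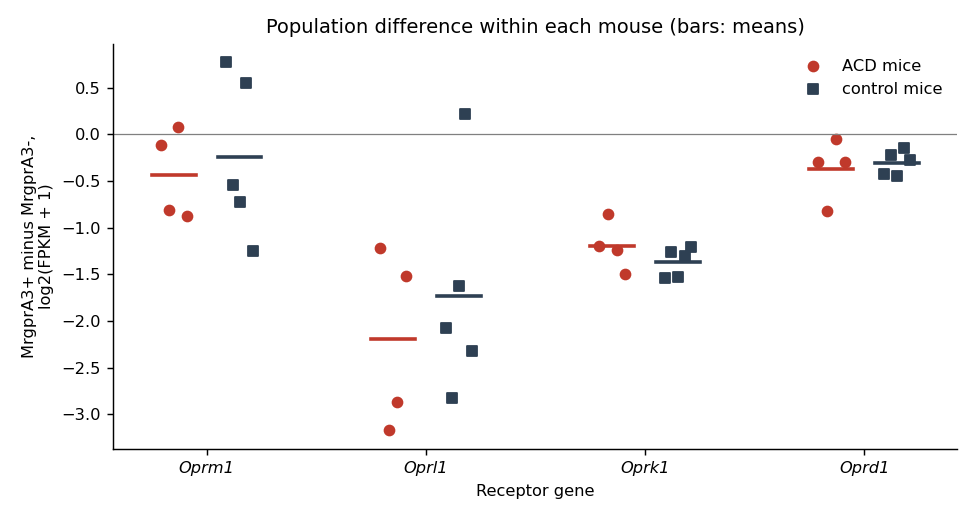
Difference of log2(FPKM + 1), MrgprA3+ minus MrgprA3-, within each mouse that gave both libraries (4 ACD mice, circles, and 5 control mice, squares), with means as horizontal bars. Oprk1 and Oprd1 lie below 0 in all 9 mice, Oprl1 in 8 and Oprm1 in 6.

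Both populations came from the same mice, so the difference was also taken within each mouse. Oprk1 was lower in MrgprA3+ neurons in 4 of 4 ACD mice, by -1.49 to -0.86 on the log2 scale, and in 5 of 5 control mice, by -1.54 to -1.20. Oprd1 was lower in 4 of 4 ACD and 5 of 5 control mice. Oprl1 was lower in 4 of 4 ACD mice (-3.17 to -1.22) and in 4 of 5 control mice, where the exception had a difference of 0.22. Oprm1 was lower in 3 of 4 ACD mice and 3 of 5 control mice, with differences from -0.88 to 0.07 in ACD mice and from -1.25 to 0.77 in control mice. An exact sign-flip test cannot go below p = 0.125 with 4 mice or 0.0625 with 5, so it cannot reach 0.05 here. In ACD mice the exact sign-flip test gave p = 0.125 for Oprk1, Oprd1 and Oprl1, and 0.25 for Oprm1. In control mice the exact sign-flip test gave p = 0.0625 for Oprk1 and Oprd1, 0.125 for Oprl1 and 0.625 for Oprm1.

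Because the share of a receptor within a library does not depend on scaling between libraries, the composition of the receptor set was compared as well. The 4 receptors summed to 3.66 ± 1.48 FPKM in MrgprA3+ and 12.7 ± 2.06 FPKM in MrgprA3- neurons of ACD mice, and to 4.40 ± 3.76 FPKM in MrgprA3+ and 11.2 ± 2.30 FPKM in MrgprA3- neurons of control mice (SD). Oprm1 made up 74.7% ± 19.7 of this sum in MrgprA3+ and 30.3% ± 5.79 in MrgprA3- neurons of ACD mice, a difference of 44.5 percentage points (exact permutation p = 0.00794). In control mice it made up 67.6% ± 25.4 in MrgprA3+ and 24.7% ± 6.42 in MrgprA3- neurons, a difference of 42.9 points (exact permutation p = 0.0159). The shares are parts of 1 sum, so this test is not independent of the lower Oprl1 and Oprk1, and the mean FPKM of Oprm1 itself in MrgprA3+ neurons was 0.664 times that in MrgprA3- neurons in ACD mice and 0.882 times in control mice. The mu receptor was the most abundant of the 4 in 4 of 4 MrgprA3+ libraries of ACD mice and 4 of 5 of control mice, and the nociceptin receptor in all 10 MrgprA3- libraries and in MrgprA3+ control replicate 4. Oprl1 made up 23.8% ± 19.3 in MrgprA3+ and 56.0% ± 7.85 in MrgprA3- neurons of ACD mice (exact permutation p = 0.00794), and 30.2% ± 26.2 in MrgprA3+ and 58.1% ± 7.30 in MrgprA3- neurons of control mice (exact permutation p = 0.0635, and 0.00794 without MrgprA3+ control replicate 4). Oprk1 made up 0.752% ± 1.16 in MrgprA3+ and 11.4% ± 3.80 in MrgprA3- neurons of ACD mice (exact permutation p = 0.0159), and 1.10% ± 0.915 in MrgprA3+ and 14.98% ± 1.63 in MrgprA3- neurons of control mice (exact permutation p = 0.00794). Oprd1 made up 0.701% in MrgprA3+ and 2.31% in MrgprA3- neurons of ACD mice (exact permutation p = 0.0635), and 1.04% in MrgprA3+ and 2.22% in MrgprA3- neurons of control mice (exact permutation p = 0.278).

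**Figure D3:**
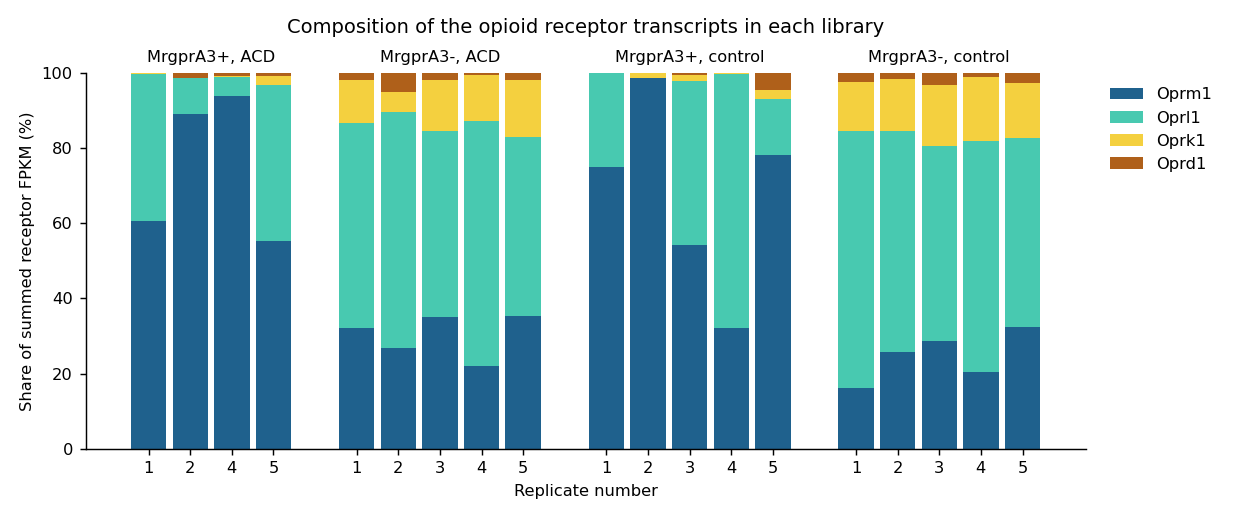
Share of each receptor in the summed FPKM of the 4 opioid receptors, in percent, for every library (bars, replicate numbers below, groups above). Oprm1 is the largest part of the sum in 8 of 9 MrgprA3+ libraries, and Oprl1 in all 10 MrgprA3- libraries and in MrgprA3+ control replicate 4.

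For the comparison of ACD with control mice, none of the receptors passed the test in either population. In MrgprA3+ neurons the log2 difference, ACD minus control, was 0.19 for Oprm1 (SE 0.39, limma adjusted p = 0.962, 95% interval -0.65 to 1.02). It was 0.00 for Oprk1 (SE 0.22, limma adjusted p = 0.998, 95% interval -0.45 to 0.46) and -0.27 for Oprl1 (SE 0.54, limma adjusted p = 0.960, 95% interval -1.42 to 0.88). In MrgprA3- neurons Oprm1 was 0.39 higher (SE 0.17, limma adjusted p = 0.551, unadjusted p = 0.0374, 95% interval 0.03 to 0.75), with 4 of 5 ACD libraries above all control libraries and an exact permutation p of 0.0635. There Oprk1 differed by -0.15 (SE 0.16, limma adjusted p = 0.806) and Oprl1 by 0.12 (SE 0.18, limma adjusted p = 0.877). Oprd1 had exact permutation p-values of 0.476 in MrgprA3+ and 0.794 in MrgprA3- neurons. Among all genes limma called 0 of 11996 (0%) in MrgprA3+ neurons, where 665 had an unadjusted p below 0.05 and a spread shared by all libraries gave 42, and 13 (0.108%) in MrgprA3- neurons. The population difference in ACD minus that in control mice was -0.20 for Oprm1, 0.16 for Oprk1 and -0.39 for Oprl1 (limma adjusted p = 0.994 for each), and 0 genes (0%) were called, with 553 at an unadjusted p below 0.05.

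Among the ligand genes, Penk, the precursor of the enkephalins, averaged 4.46 ± 3.79 FPKM in MrgprA3+ and 46.2 ± 29.1 FPKM in MrgprA3- neurons of ACD mice, and 14.0 ± 20.3 FPKM in MrgprA3+ and 43.9 ± 35.4 FPKM in MrgprA3- neurons of control mice (SD). Its log2 differences of -3.00 (limma adjusted p = 0.0745) and -2.07 (limma adjusted p = 0.177) did not pass. Pdyn, the precursor of dynorphins, was listed at 0 in all MrgprA3+ libraries and reached 0.32 FPKM in MrgprA3- libraries, and Pnoc, the precursor of nociceptin, reached 0.06 FPKM in MrgprA3+ and 0.24 FPKM in MrgprA3- libraries. Pomc, the precursor of beta-endorphin, reached 1.24 FPKM in MrgprA3+ and 0.89 FPKM in MrgprA3- libraries. Of 8 genes of peptide processing, 3 were higher and 1 lower in ACD mice, and 3 were higher and 0 lower in control mice, among them Pcsk2, a prohormone convertase (0.66 and 0.68), and its chaperone Scg5 (0.53 and 0.48). Of all genes tested, 6.84% were higher and 15.2% lower in ACD mice, and 8.64% were higher and 18.4% lower in control mice. None of the 2 measured genes of peptide degradation passed in either treatment.

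**Figure D4:**
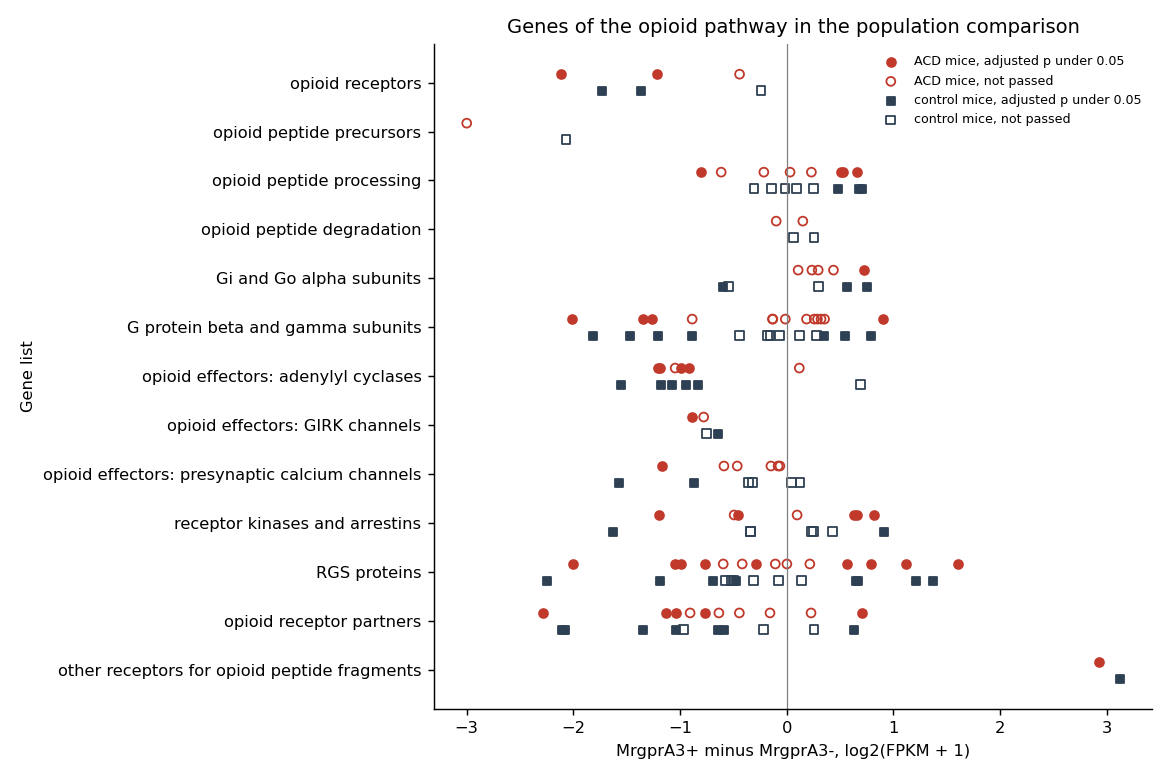
Log2 difference, MrgprA3+ minus MrgprA3-, of the genes past the expression filter in each list of the opioid pathway (ACD mice, circles, and control mice, squares; filled where the limma adjusted p is under 0.05). The adenylyl cyclases lie mostly below 0, with a median of -1.02 in ACD and -1.01 in control mice, and the filled points of the RGS proteins lie on both sides of 0. These medians include Adcy1 and Adcy7, which like Oprk1, Gng7 and Kcnj9 passed the filter through MrgprA3- libraries alone and so had to differ.

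Downstream of the receptors the adenylyl cyclases, the enzymes that make cyclic AMP and of which Gi inhibits some but not all, passed the test in 1 direction only. Counts of this and the next lists stand beside 15.2% lower and 6.84% higher of all genes tested in ACD mice, and 18.4% lower and 8.64% higher in control mice. Of 6 measured, 4 were lower and 0 higher in MrgprA3+ neurons of ACD mice, and 5 were lower and 0 higher in control mice, with medians of -1.02 and -1.01 beside -0.12 and -0.14 over all genes. Adcy1 differed by -0.99 in ACD and -1.18 in control mice, Adcy2 by -1.19 and -0.94, and Adcy7 by -1.21 and -1.08. Adcy5, at -1.56, had the lowest value of the 6 in control mice, and its -1.05 in ACD mice did not pass. Adcy1 and Adcy7 passed the filter through MrgprA3- libraries alone, with at most 0.24 and 0.40 FPKM in MrgprA3+ libraries, and so had to differ. Without them 2 of 4 cyclases were lower in ACD and 3 of 4 in control mice. Gnao1, the alpha subunit of Go, was higher in MrgprA3+ neurons by 0.72 in ACD mice (limma adjusted p = 4.95e-06) and by 0.75 in control mice (limma adjusted p = 8.18e-07). Of the 5 Gi and Go alpha genes 1 was higher and 0 lower in ACD mice, and 2 were higher and 1 lower in control mice. Of 13 beta and gamma subunits 1 was higher and 3 lower in ACD mice, and 3 were higher and 4 lower in control mice, and Gng7 had the lowest value at -2.01 and -1.82. Gng7 reached at most 0.58 FPKM in MrgprA3+ libraries, passed the filter through MrgprA3- libraries alone and so had to differ.

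Among the ion channels that opioid receptors act on, Kcnj9, a GIRK subunit, averaged 0.005 FPKM in MrgprA3+ and 0.906 FPKM in MrgprA3- neurons of ACD mice, and 0.038 FPKM in MrgprA3+ and 0.678 FPKM in MrgprA3- neurons of control mice. It passed the filter through MrgprA3- libraries alone, so that it had to differ, and was the 1 gene of 2 measured GIRK genes that was lower in each treatment. Of 6 calcium channel genes 1 was lower in ACD and 2 in control mice, with Cacnb4, a beta subunit, at -1.16 and -1.57, beside 15.2% and 18.4% of all tested genes that were lower. Of 7 receptor kinases and arrestins 3 were higher and 2 lower in ACD mice, and 1 was higher and 1 lower in control mice. Adrbk2, which encodes the receptor kinase GRK3, fell by 1.20 in ACD mice and 1.63 in control mice.

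The listed genes for RGS proteins, many of which speed the shutoff of Gi and Go, and for an RGS binding protein moved in both directions. Of 14, 4 were higher and 5 lower in ACD mice, and 4 were higher and 4 lower in control mice. Rgs5, listed here as a mural marker and not among the 14, was higher by 2.88 in ACD and 2.08 in control mice. Rgs12 differed by -2.0 and -2.25, Rgs2 by 1.61 and 1.37, and Rgs17 by 1.12 and 1.21. Rgs19, the neighbour of Oprl1 on the chromosome, was lower as well, by 0.77 in ACD and 0.69 in control mice (limma adjusted p = 0.0349 and 0.0375). A list of opioid receptor partners, not all of them known to bind or sort these receptors, had 10 measured genes. Of these, 1 was higher and 4 lower in ACD mice, and 1 was higher and 6 lower in control mice. Wls, which binds the mu receptor, differed by -2.29 and -2.11, Gpr139, an orphan receptor known to oppose mu receptor signalling, by -2.08 in control mice (-0.91 in ACD mice, not passed), and Gprasp2, of the family of receptor-associated sorting proteins, by -1.14 and -1.35. Mrgprx1, a Mas-related receptor that answers BAM8-22, a fragment of the enkephalin precursor, was higher by 2.93 and 3.12. None of the genes in these lists passed the test between ACD and control mice in either population.

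Over all 19 libraries Oprk1 and Oprl1 had a Pearson r of 0.80 on the log2 scale, but 0.04 once the group means were removed. Oprk1 lay at 0.1 FPKM or below in all MrgprA3+ libraries and had little spread there. Its r within groups therefore rests mostly on the MrgprA3- libraries. Oprm1 and Oprl1 had an r of 0.58, and 0.52 within groups. Among the genes most like Oprk1, of those with at least 5 FPKM in a group, were Trim16 (r = 0.97), Vsnl1, Cnr1 and Ntrk2 (r = 0.95 each), and within groups the r of these 4 with Oprk1 was between -0.17 and 0.39. Cnr1 encodes the cannabinoid receptor CB1 and Ntrk2 the neurotrophin receptor TrkB of large neurons. Those most like Oprl1 were Mdh1 (r = 0.93), Pnck (0.92), Got2 (0.92), Plk2 (0.91) and Stx11 (0.91), and within groups r was 0.68 to 0.84. Those most like Oprm1 were Elp2 (r = 0.80), Pdss2 (0.79), Rnf141 (0.79), Snx29 (0.77) and Flcn (0.76), with 0.67 to 0.78 within groups. The libraries share their mice, depth and sort, the genes were picked as the highest of all those measured, and the values are given as a description.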

How the data were processed

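Polyadenylated RNA from sorted MrgprA3+ and MrgprA3- neurons of dorsal root ganglia was sequenced, giving 19 libraries in 4 groups. The authors deposited FPKM values per gene, aligned with Bowtie2 to mm9 per the submitters' processing notes; which version, annotation, quantification program or further scaling they used is not given in the sources used here. Depth was approximated from the spacing of low FPKM values, with transcript lengths from GENCODE vM21. Of the low values, 73.3% to 82.8% lay within 0.2 of a whole step, so fragment numbers are approximate and cover counting error only. MrgprA3+ ACD replicate 3 was not analysed here.

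The 11996 of 18666 genes that reached 1 FPKM in 4 or more libraries were tested with limma 3.58.1 (R 4.3.3, trend and robust options) on log2(FPKM + 1), adjusted by Benjamini and Hochberg. The population comparisons shared 1 spread over 19 libraries, and the ACD comparisons used the libraries of 1 population, because earlier simulated data had shown the shared spread to be faulty there. Differences understate changes of low genes. Exact permutation tests were two-sided (Python 3.11.15). The fits were tested on simulated data, where the population fits made more false calls than the threshold allows, so their adjusted p-values are too small and the exact tests are printed beside them. Both populations came from every mouse per the labels' protocols, so replicate numbers pair the populations within a treatment, and the deviations of paired libraries correlated at -0.06 to 0.19. Libraries of 1 group come from separate mice per those protocols. Alternatives were a pseudocount of 0.1, no or a stricter filter (5 FPKM), rescalings, other spread options, the replicate block and leaving out each library.

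The receptors and gene lists were chosen with earlier results of these data known. Named besides the receptors were up to 3 genes per list with the largest difference past the threshold, a few set genes, and the 5 genes most like each receptor past the filter, of which 1 is not reported here. Ipcef1, Ptprc, Cdh5, Pmp22, Rgs5, Calca, Calcb, Tubb3, Snap25 and Apoe were named after their values were seen.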

Additional observations from a re-analysis of the deposited data

Results flagged for a closer look

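Of 32 sets of values examined (FPKM and shares of the 4 receptors in 4 groups), 5 held a library far from the rest by Dixon's rule. Chance meets this rule in about 1 in 20 independent sets of normal values. Several sets here lie near 0 and the shares are made from the same FPKM, so the 5 cannot be set against that rate. Oprl1 in MrgprA3+ control replicate 4 was 6.73 FPKM, against 0 to 1.58 FPKM in the other MrgprA3+ control libraries. Oprk1 in MrgprA3+ ACD replicate 5 was 0.1 FPKM, against 0 to 0.01 FPKM in the other MrgprA3+ ACD libraries, and its share of the receptor sum there was 2.48%. Oprd1 in MrgprA3- ACD replicate 2 was 0.82 FPKM, against 0.06 to 0.27 FPKM in the other MrgprA3- ACD libraries. The share of Oprd1 in MrgprA3+ control replicate 5 was 4.60%, in the library with the lowest Oprm1 (0.68 FPKM). For scale, 1 fragment was worth about 0.0158 to 0.0323 FPKM for Oprl1, 0.0102 to 0.0207 FPKM for Oprk1 and 0.0118 to 0.0241 FPKM for Oprd1. No cause was tested.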

How the results depend on the processing

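Of the member differences, 312 alternatives kept direction and side of the threshold, 6 lost the call and 10 turned the sign of a difference that had not passed. Oprl1 passed in both population comparisons under every alternative. Oprk1 did so under every alternative that gave a value, as the stricter filter kept only Oprl1. Since Oprk1 passed the main filter through MrgprA3- libraries alone, it had to differ, and its passing is no support for a difference. With the replicate block (the mouse) Oprl1 was -2.19 (limma adjusted p = 0.00232) in ACD mice and no receptor's call changed. Quantile normalization gave 0.056 for Oprm1 in the control population comparison, -0.033 for Oprk1 between ACD and control MrgprA3+ neurons (-0.00054 with a pseudocount of 0.1), and -0.12 and -0.13 for Oprd1 between the populations in ACD and control mice. Leaving out 1 library gave, for ACD minus control in MrgprA3+ neurons, -0.034 to 0.41 for Oprm1, -0.027 to 0.019 for Oprk1 and -0.56 to 0.18 for Oprl1. It gave -0.071 to 0.12 for Oprd1 in MrgprA3- neurons, and -0.42 to -0.22 for Oprd1 between the populations in ACD mice. The difference of differences lay at -0.42 to 0.022 for Oprm1 and -0.68 to 0.061 for Oprl1. Shares moved, in percentage points, from -37.2 to -20.3 for Oprl1 between the control populations. Between ACD and control MrgprA3+ neurons the share differences were -1.76 to 14.9 (Oprm1), -0.600 to 0.550 (Oprd1) and -14.0 to 2.88 (Oprl1), and in MrgprA3- neurons -0.632 to 0.535 (Oprd1) and -4.47 to 0.391 (Oprl1). The cause was not tested. The 13 genes called between ACD and control MrgprA3- neurons became 0 with no filter or a shared spread, 2 with the replicate block, 6 with a pseudocount of 0.1, 8 without the trend and robust options and 4 to 13 without 1 library. In MrgprA3+ neurons 42 genes were called with the shared spread, against 0. Depth limits Oprd1 and Oprk1 in MrgprA3+ neurons, where a value rests on a few fragments.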
